A study of Mus musculus with 12 samples.

Results

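The 10 genes described here serve the response of the endoplasmic reticulum (ER) to unfolded protein: the chaperone gene Hspa5, the transcription factor genes Xbp1, Atf4 and Ddit3, the ER-associated degradation genes Derl1, Derl2, Derl3 and Edem1, and the ATF4 targets Asns and Trib3. They were chosen by name, and a probe belonged to one of them if its gene name on the array, or the current symbol of its accession, was on that list. All 10 had a probe, 17 probes in all, and all 17 were well above background on all 24 arrays, so that all 10 were among the 28351 genes tested. Each gene is given by its brightest probe as the log2 ratio of tumour over reference, in which 0 means an equal signal in both and a step of 1 means a doubling.

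The tumours came from female mice of 6 strains that carry an activated neu (ErbB2) receptor gene under the MMTV promoter, which is active mainly in the mammary epithelium. In NYPD the receptor lacks the tyrosine autophosphorylation sites of its tail, in the strains YB, YC, YD and YE 1 of these sites has been added back, and NDL25 is the parental NDL2-5 strain with the tail intact. The mice of all strains had borne tumours for 6 weeks, and their ages are not given in the sources used here. From each strain the RNA of 10 tumours went into 2 pools, 5 tumours in each. A pool was hybridised with Universal Mouse Reference RNA on 2 Agilent arrays with the dyes exchanged. A strain therefore had n = 2 pools, the spread among single tumours was not seen, and in such bulk RNA fewer cells of a type and less RNA per cell cannot be told apart.

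The median spot of the tumour channel read 364.8 to 763.5 intensity units on the 24 arrays. Luminal and milk genes, which mark the labelled tissue, averaged 1.67 to 2.71 above the reference in the 12 pools. The tumour channel was itself read from such genes, so their place above the reference is no check of the tissue. Pool 1 of YB and pool 1 of NDL25 stood apart on the brightest Erbb2 probe. They read 1.85 in YB and 1.64 in NDL25 against 3.42 to 4.19 in the other 10 pools. The dimmer Erbb2 probes did not set both pools apart. A dimmer probe read 0.81 in YB pool 1 and 0.97 in NDL25 pool 1, within its range of 0.45 to 1.03. Another read 0.24 in YB pool 1 and was lowest, at -0.01, in NDL25 pool 1. The choice of these pools thus rests on the brightest probe alone. Differences of YB and NDL25 that passed among the 10 genes, and some of Xbp1 and Trib3 that did not, are also given without 1 or both of these pools. Genes of the other lists are given with all pools only. By the array headers YB, NDL25 and pool 1 of YC lie in one feature extraction session, YD and YE in another and NYPD in one of its own. The arrays of YC pool 2 are split, its first with YD and YE and its second with YB and NDL25, and the pool was given the session of its first array. Every value with session as a block depends on that choice, because YC was then the only strain in 2 sessions. In every difference from NYPD, strain and session cannot be told apart. Fits with session as a block therefore left NYPD out, and their F tests cover only the other strains.

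Cells with unfolded protein in the ER release the chaperone BiP, the product of Hspa5, from 3 membrane sensors. The sensor IRE1 splices the Xbp1 mRNA into the form that encodes an active factor, PERK slows translation and thereby favours ATF4, and ATF6 is cut to free a factor of its own. XBP1 and ATF6 drive chaperones, the secretory machinery and ER-associated degradation (ERAD), which pulls misfolded proteins back into the cytosol for the proteasome. ATF4, which amino acid shortage also induces, drives amino acid synthesis and transport and, with CHOP, genes that limit or end the response. Secretory epithelium such as the lactating mammary gland relies on XBP1 for its ER.

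Across the strains 3 of the 10 genes differed. Asns was higher in YB tumours than in those of each of the other 5 strains, Derl3 was lower in YB than in NDL25, and Xbp1 was lower in YB than in NYPD and YC. The remaining 7 genes had no difference past the threshold, an adjusted p under 0.05 in limma with Benjamini-Hochberg adjustment over all genes within each comparison. Of 150 differences, 10 genes in 15 pairs of strains, 8 passed, and all 8 involved YB. Over all genes, 3.63% to 5.16% passed in the pairs with YB and at most 1.82% in any other pair. An unadjusted p under 0.05 was found for 36 of the 150, against 2.36% to 20.4% of all genes in the 15 pairs. By the F test over the 6 strains 2 of the 10 genes passed, Asns (adjusted p = 0.0222) and Derl3 (adjusted p = 0.0475), against 3.21% of all genes tested.

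**Figure D1:**
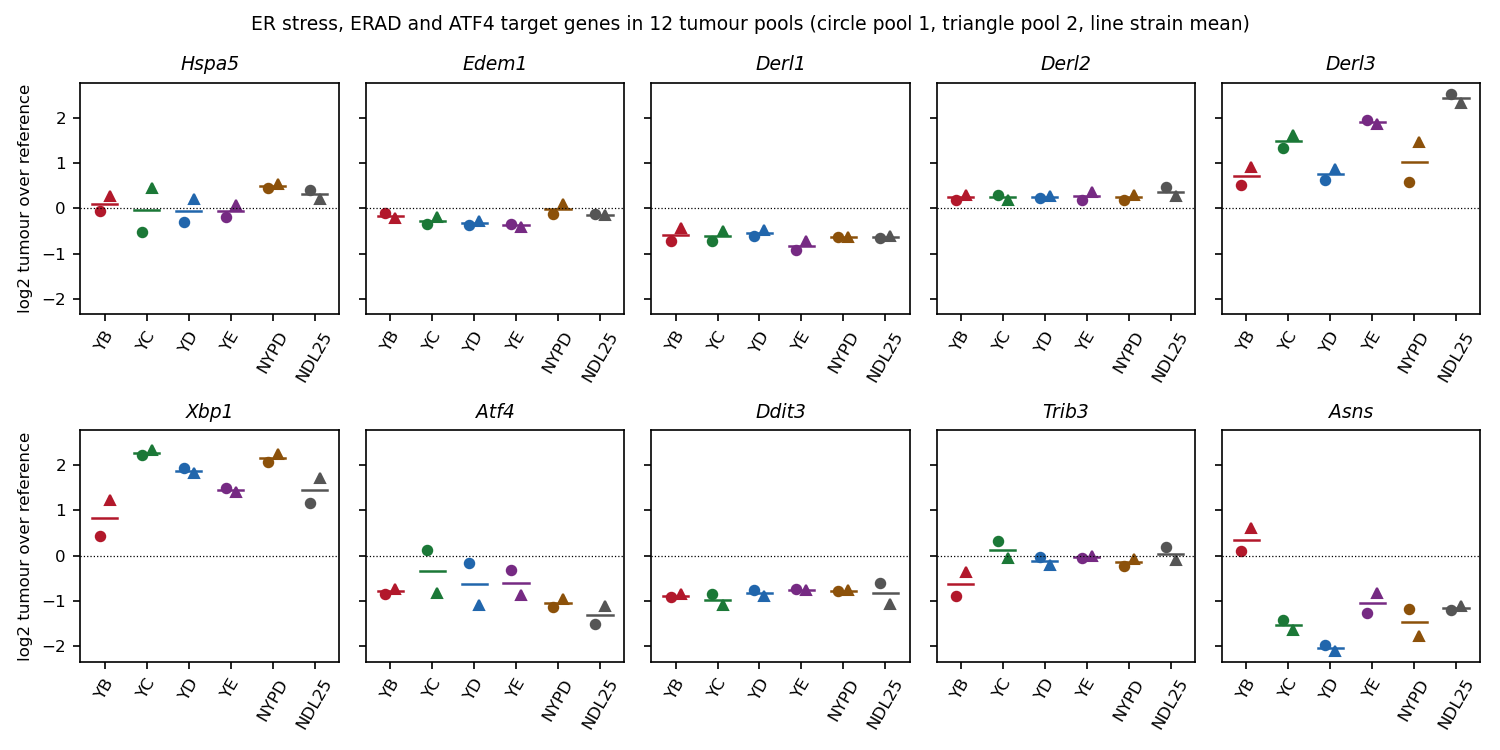
Log2 tumour over reference of the 10 genes in each tumour pool, by strain; circles are pool 1, triangles pool 2, lines the strain mean, and the dotted line marks the level of the reference. Asns lies above the reference in YB, at 0.10 and 0.61, and below it in all 10 other pools; Derl3 is highest in NDL25, at 2.54 and 2.33; Xbp1 is lowest in YB pool 1, at 0.43.

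Asns encodes asparagine synthetase, which makes asparagine from aspartate and glutamine and is a classical ATF4 target. It stood at 0.10 and 0.61 in the 2 YB pools. The other pools were at -1.43 and -1.64 in YC, -1.96 and -2.11 in YD, -1.26 and -0.82 in YE, -1.17 and -1.78 in NYPD and -1.19 and -1.11 in NDL25. Both YB pools thus lay above the reference and above all 10 other pools, as did those of YB for 9.51% of all genes. Both YD pools lay below all others, as did those of YD for 1.09% of all genes. On single arrays YB ran from 0.02 to 0.65, while the highest array of any other strain was at -0.70 in YE.

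The Asns difference was 2.84-fold for YB over NDL25 (log2 1.50 ± 0.24, SE, 95% interval 0.94 to 2.07, limma adjusted p = 0.0195). There 2 of the 10 genes passed, against 3.96% of all genes. It was 5.24-fold over YD (log2 2.39, adjusted p = 0.00453), where 1 of the 10 passed against 3.82% of all genes. Over YC it was 3.70-fold (log2 1.89, adjusted p = 0.00956), with 2 of the 10 against 4.12%, and over NYPD 3.55-fold (log2 1.83, adjusted p = 0.0103), with 2 of the 10 against 5.16%. Over YE it was 2.63-fold (log2 1.39, adjusted p = 0.0268), with 1 of the 10 against 3.63%. Among the 5 other strains the means ran from -2.04 in YD through -1.54 in YC, -1.48 in NYPD and -1.15 in NDL25 to -1.04 in YE. No neighbours in that order differed past the threshold, and the ends, YD and YE, had a difference of -0.99 (95% interval -1.56 to -0.43, adjusted p = 0.269).

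Several of these calls were lost when a pool was left out or session was a block. YB over NDL25 had adjusted p = 0.13 without NDL25 pool 1, 0.101 without NDL25 pool 2 and 0.0598 without YB pool 2, and log2 1.72 (adjusted p = 0.0882) without pool 1 of both strains. YB over YE missed the threshold without any single pool of NDL25, YC, YD or YE or without YB pool 2, with adjusted p from 0.0501 to 0.124, and with session as a block (log2 1.18, adjusted p = 0.34). YB over YC had adjusted p = 0.0645 without YC pool 1, 0.0796 without YC pool 2 and 0.0827 with session as a block. YB over YD had adjusted p = 0.0568 without YD pool 2 and 0.291 with session as a block. The F test of Asns had adjusted p from 0.0535 to 0.0669 without either pool of NDL25, YC or YD or without YB pool 2, and 0.117 with session as a block. The direction was the same in all of these fits. Without YB pool 1 the log2 differences of YB were 2.08 over NYPD, 2.14 over YC, 2.64 over YD and 1.65 over YE. All of these were the same in size when NDL25 pool 1 was left out as well, and that over YE then missed the threshold. Over all 25 alternatives of the F test, Asns missed the threshold in 9. Asns was read by 1 probe.

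The start of Asns holds the core of the element through which ATF4 acts, and its window is printed because Asns is the gene with the widest spread among strains. It covers 250 bases before to 50 after the gene start, from RefSeq on build GRCm38.p6, chr6:7693160-7693459 on the minus strand, 5′ to 3′, with the match in capitals.
Asns: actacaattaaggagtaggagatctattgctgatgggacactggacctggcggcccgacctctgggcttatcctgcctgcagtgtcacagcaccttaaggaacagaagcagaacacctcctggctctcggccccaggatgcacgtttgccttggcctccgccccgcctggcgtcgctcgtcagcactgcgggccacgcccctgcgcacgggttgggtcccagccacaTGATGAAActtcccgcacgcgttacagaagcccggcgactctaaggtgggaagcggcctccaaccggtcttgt
The letters searched were TGATGNAA on both strands. The match, TGATGAAA, begins at base -23 relative to the gene start. Of all 32851 promoter windows 3.969% hold these letters, and of the other 8 genes with a window only Trib3 also does, at base 14 on the reverse strand (TTACATCA). A match is a description of the letters in the window.

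Among markers of other cell types, the salivary acinar genes set the YB pools apart from the other 10 by list average. Of 16 salivary acinar genes tested, 10 were higher in YB than in NDL25, among them Prpmp5, a salivary proline-rich protein, at 5.98 and 6.10 in YB and 0.10 and 0.08 in NDL25. The list averaged 3.02 and 3.39 in the YB pools and 0.61 to 0.99 in the other 10. The 18 B cell and plasma cell markers tested averaged -1.24 and -1.44 in YB and -1.59 to -1.14 in the other 10 pools, and 1 of the 18, Blnk, rose in YB over NDL25. The plasma cell genes Jchain (-4.39 to -3.70) and Mzb1 (-3.74 to -3.13) lay far below the reference in all 12 pools. The macrophage markers averaged 1.97 and 1.48 in YB, 1.10 and 1.07 in NDL25 and 1.53 and 1.60 in NYPD. The fibroblast markers averaged 0.56 and -0.32 in YB, -0.61 and -0.74 in NDL25 and 0.42 and -0.19 in NYPD. On both of these lists YB was thus near NYPD. The part of these cells in the Asns, Derl3 and Xbp1 differences was not tested.

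Derl3 encodes Derlin-3, an ERAD channel component of secretory tissues that XBP1 induces. It was above the reference in all 12 pools, at 0.52 and 0.91 in YB, 1.34 and 1.62 in YC, 0.64 and 0.87 in YD, 1.95 and 1.87 in YE, 0.58 and 1.47 in NYPD and 2.54 and 2.33 in NDL25. Both NDL25 pools lay above all 10 others, as did those of NDL25 for 3.05% of all genes. YB fell 3.28-fold below NDL25 (log2 -1.72 ± 0.27, SE, 95% interval -2.35 to -1.08, limma adjusted p = 0.0182). Of the other strains set against NDL25, YD had a log2 difference of -1.68 (adjusted p = 0.095), NYPD -1.41 (adjusted p = 0.063), YC -0.95 (adjusted p = 0.238) and YE -0.52 (adjusted p = 0.739). The 95% intervals of YD, NYPD and YC lay below 0 and that of YE ran from -1.15 to 0.11, and none of the 4 passed.

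The order of the Derl3 means was YB at 0.72, YD at 0.76, NYPD at 1.03, YC at 1.48, YE at 1.91 and NDL25 at 2.43. No 2 neighbours differed past the threshold. The pools of NYPD lay 0.88 apart, a gap that 2.07% of genes reach in that strain. The differences from NYPD moved with the pool left out. Without NYPD pool 2, at 1.47, Derl3 was lower in NYPD than in NDL25 (log2 -1.85, adjusted p = 0.0308) and higher in YE than in NYPD (log2 1.33, adjusted p = 0.0483). Without NYPD pool 1, at 0.58, NYPD minus NDL25 was -0.96 (adjusted p = 0.0878) and YE minus NYPD 0.44 (adjusted p = 0.325).

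The Derl3 difference of YB from NDL25 had adjusted p = 0.129 without NDL25 pool 1, 0.0885 without NDL25 pool 2 and 0.0582 without YB pool 1, and log2 -1.42 (adjusted p = 0.219) without pool 1 of both strains. With session as a block it passed (adjusted p = 0.0193). In the F test Derl3 missed the threshold without any 1 pool of the strains other than NYPD (adjusted p from 0.0616 to 0.151), with session as a block (adjusted p = 0.0802) and with the deposited ratios (adjusted p = 0.0822). Over all 25 alternatives of the F test, Derl3 missed the threshold in 15. Derl3 was read by 1 probe, whose arrays of 1 pool differed by up to 0.73, more than for the other 9 genes.

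**Figure D2:**
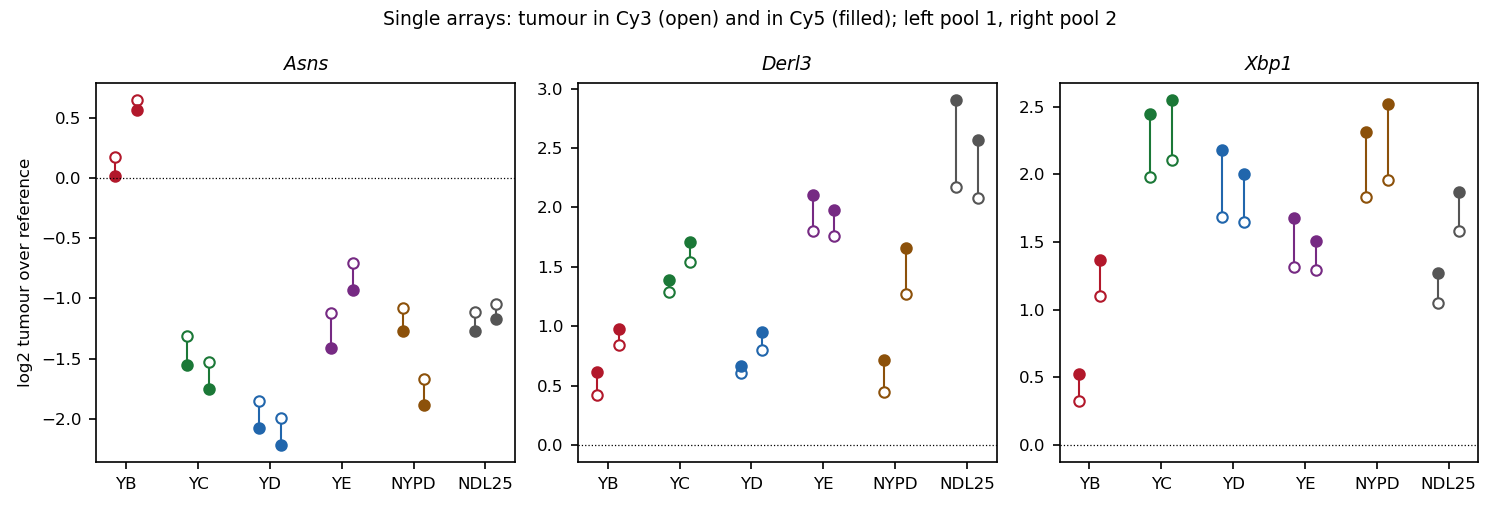
Log2 tumour over reference of Asns, Derl3 and Xbp1 on single arrays by strain; open points have the tumour RNA in Cy3, filled points in Cy5, a line joins the arrays of 1 pool, and pool 1 is left of pool 2. The 4 YB arrays of Asns lie above every other array, and the 4 NDL25 arrays of Derl3, from 2.08 to 2.90, overlap those of YE, from 1.76 to 2.10, by a narrow margin.

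Derl3 and Hspa5 are the 2 genes, of 9 with a window, whose start holds the full ER stress response element (ERSE), through which ATF6 and XBP1 act. Their windows are printed side by side to show the element, which lies on opposite strands in them. The Derl3 window is chr10:75893148-75893447 on the plus strand and the Hspa5 window chr2:34771840-34772139 on the plus strand, from RefSeq on build GRCm38.p6, 5′ to 3′, with the match in capitals.
Derl3: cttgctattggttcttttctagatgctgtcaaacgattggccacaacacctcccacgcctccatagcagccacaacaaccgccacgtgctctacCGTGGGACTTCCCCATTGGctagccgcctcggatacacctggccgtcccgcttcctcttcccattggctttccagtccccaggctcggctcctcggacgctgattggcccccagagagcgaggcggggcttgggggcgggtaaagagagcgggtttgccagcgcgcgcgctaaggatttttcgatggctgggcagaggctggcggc
Hspa5: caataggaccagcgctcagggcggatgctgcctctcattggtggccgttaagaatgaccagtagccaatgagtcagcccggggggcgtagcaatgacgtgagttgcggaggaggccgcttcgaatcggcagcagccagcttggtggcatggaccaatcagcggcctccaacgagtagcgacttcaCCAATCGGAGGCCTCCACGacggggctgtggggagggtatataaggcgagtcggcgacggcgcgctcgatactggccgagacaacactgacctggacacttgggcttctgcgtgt
The letters searched were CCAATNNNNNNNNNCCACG on both strands. In Hspa5 the match begins at base -65, and in Derl3 it lies on the reverse strand and begins at base -156. Of all 32851 windows 39 hold these letters, 0.1187%. The core of the element that XBP1 binds alone, TGACGTGG, searched on both strands, was in none of the 10 windows of 9 genes, and 0.6758% of all windows hold it. Derl1 was not matched.

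Xbp1, the factor that IRE1 activates by splicing, was above the reference in all 12 pools. It stood at 0.43 and 1.24 in YB, 2.21 and 2.33 in YC, 1.93 and 1.83 in YD, 1.50 and 1.40 in YE, 2.07 and 2.24 in NYPD and 1.16 and 1.73 in NDL25. Pool 1 of YB was the lowest of all, and the YB pools lay 0.81 apart, a gap that 3.61% of genes reach in that strain. Xbp1 was 2.71-fold lower in YB than in YC (log2 -1.44 ± 0.26, SE, 95% interval -2.05 to -0.83, limma adjusted p = 0.0283) and 2.50-fold lower in YB than in NYPD (log2 -1.32, 95% interval -1.93 to -0.72, adjusted p = 0.0312).

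Against NDL25 the YB pools overlapped those of NDL25 for Xbp1 (log2 -0.61, 95% interval -1.22 to -0.01, adjusted p = 0.283). The means ran from YB at 0.83 through NDL25 at 1.44, YE at 1.45, YD at 1.88 and NYPD at 2.15 to YC at 2.27. No 2 neighbours differed past the threshold. Against YD the difference was -1.05 (adjusted p = 0.0768). Without YB pool 2 it was -1.45 (adjusted p = 0.0235), without YB pool 1 it was -0.64 (adjusted p = 0.157), and without pool 1 of YB and NDL25 it was -0.64 (adjusted p = 0.0358). The difference of Xbp1 from NDL25 was -0.21 without YB pool 1 and -1.02 without YB pool 2, and -0.49 without pool 1 of both strains, and passed in none of the 3. Without YB pool 1 YB differed from YC by -1.04 and still passed, and from NYPD by -0.92 (adjusted p = 0.0554). Without pool 1 of both YB and NDL25 these differences were the same in size and passed (adjusted p = 0.00975 against YC and 0.0124 against NYPD). The difference from NYPD also missed the threshold without any 1 pool of YC, YD, YE or NYPD (adjusted p from 0.0579 to 0.122) and with the first array of each pair (-1.18, adjusted p = 0.0782). That from YC missed it without any 1 pool of YC, YD or YE (adjusted p from 0.0524 to 0.139), with the second arrays (-1.10, adjusted p = 0.0618) and with session as a block (-1.38, adjusted p = 0.182). The 1 probe of Xbp1 does not tell the spliced form of the mRNA from the unspliced one.

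**Figure D3:**
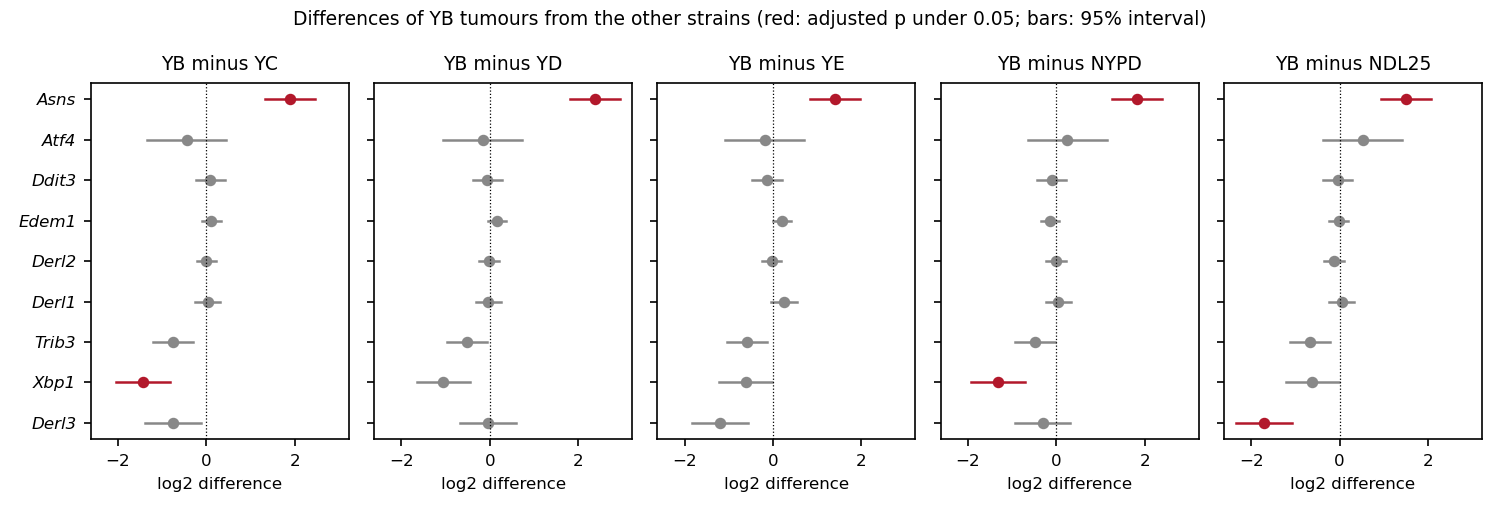
Log2 differences of YB from each of the other strains for 9 of the genes (Hspa5, with saturated spots, is not drawn), with points for the estimate, bars for the 95% interval and red for an adjusted p under 0.05. Asns lies right of 0 in all 5 panels, from 1.39 to 2.39, Derl3 is red against NDL25 alone and Xbp1 against YC and NYPD.

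Hspa5 encodes BiP, the main ER chaperone and a standard readout of ER stress. It was near the level of the reference, at -0.07 and 0.28 in YB, -0.53 and 0.44 in YC, -0.31 and 0.21 in YD, -0.19 and 0.08 in YE, 0.45 and 0.53 in NYPD and 0.41 and 0.21 in NDL25. The tumour signal was saturated on all 4 arrays of NDL25, on 3 of YB and on 1 each of the other 4 strains. The reference was saturated on 2 arrays. The ratios of Hspa5 are therefore not exact in any strain, least so in NDL25 and YB, and no difference or order of strains is given for it. No difference of Hspa5 passed limma, which with saturated spots says nothing about its size. With median centring in place of loess Hspa5 averaged -0.18 and not 0.13 over the 12 pools, so its side of the reference depends on the scaling.

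Atf4, the factor at the centre of the PERK branch, whose protein is set mainly by translation, was below the reference in 11 of 12 pools. It stood at -0.84 and -0.74 in YB, 0.12 and -0.82 in YC, -0.16 and -1.10 in YD, -0.33 and -0.88 in YE, -1.12 and -0.96 in NYPD and -1.52 and -1.11 in NDL25. No strain differed past the threshold, and the largest difference from NDL25 was that of YC (log2 0.96, 95% interval 0.07 to 1.86, adjusted p = 0.393). YB, with the highest Asns, had an Atf4 difference from NDL25 of 0.52 (95% interval -0.37 to 1.42, adjusted p = 0.572).

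In YC, YD and YE the pool numbered 1 had the higher Atf4 and the lower Hspa5. The Atf4 gap, pool 1 minus pool 2, was 0.94 in YC, 0.94 in YD and 0.55 in YE. Of all genes 0.836%, 0.854% and 4.80% had a gap of at least that size in these strains. The Hspa5 gap was -0.97 in YC, -0.52 in YD and -0.27 in YE, and 0.734%, 5.66% and 19.7% of genes had one as large. In each of these strains the saturated Hspa5 array was of pool 2, so the Hspa5 gaps are not exact. Both arrays of every one of these pools showed the order of Atf4. In the other strains the Atf4 gap was -0.10 in YB, -0.17 in NYPD and -0.41 in NDL25. These gaps set the wide intervals of both genes, and nothing in the labels says that equal pool numbers share a source.

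Ddit3 encodes CHOP, the factor that ATF4 induces under lasting stress and that promotes cell death. It was below the reference in all 12 pools, from -1.10 in YC pool 2 to -0.61 in NDL25 pool 1, and its strain means covered only 0.22. None of its 15 differences passed limma, and none had an unadjusted p under 0.05. For YB minus NDL25 the difference was -0.05 (95% interval -0.38 to 0.29, adjusted p = 0.926).

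Trib3 encodes a pseudokinase that CHOP and ATF4 induce and that dampens the response. It stood at -0.89 and -0.36 in YB, 0.33 and -0.06 in YC, -0.03 and -0.20 in YD, -0.06 and -0.01 in YE, -0.22 and -0.08 in NYPD and 0.19 and -0.10 in NDL25. Both YB pools lay below all 10 others, as did those of YB for 4.39% of all genes, which is the side opposite to Asns. The difference was -0.67 for YB minus NDL25 (95% interval -1.13 to -0.22, adjusted p = 0.117) and -0.76 for YB minus YC (95% interval -1.21 to -0.31, adjusted p = 0.0787). Both moved with the YB pool left out. Without YB pool 2 they passed, with -0.94 (adjusted p = 0.0465) and -1.02 (adjusted p = 0.0373), and without YB pool 1 they were -0.41 (adjusted p = 0.333) and -0.50 (adjusted p = 0.211). Without pool 1 of both YB and NDL25 the Trib3 difference from NDL25 was -0.26 (adjusted p = 0.726). A second, dimmer Trib3 probe read -0.30 and 0.01 in YB, which overlaps its -0.19 and -0.06 in NDL25.

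The other ERAD genes differed little. Derl1, a Derlin expressed in most tissues, was below the reference in all 12 pools, from -0.93 in YE to -0.43 in YB, and its 3 other probes were below it too. Derl2, its close relative, was above the reference in all 12 pools, by 0.17 to 0.46. Its dimmer probe read between -0.11 and 0.27. No difference of Derl1 or Derl2 had an unadjusted p under 0.05, and for YB minus NDL25 the 95% interval was -0.24 to 0.34 for Derl1 and -0.34 to 0.09 for Derl2. The interval of Derl3 for the same difference, -2.35 to -1.08, does not overlap either.

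Edem1 encodes a lectin that passes misfolded glycoproteins to ERAD and is a target of XBP1. It ran from -0.41 in YE pool 2 to 0.09 in NYPD pool 2. Its largest difference was -0.36 for YE minus NYPD (95% interval -0.56 to -0.15, limma adjusted p = 0.0908). The other probes of Edem1 disagreed on its level, 1 reading -1.51 to -0.72 and the other 0.03 to 0.39. They also disagreed on YE against NYPD. The lower probe read -1.51 and -1.13 in YE, below -0.87 and -1.10 in NYPD. The higher one read 0.19 and 0.14 in YE, above 0.04 and 0.06 in NYPD.

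In the 10 pairs of strains without YB none of the 10 genes passed limma. The share of all genes that passed was 0.00353% for YC minus NDL25, 0.00705% for YD minus NDL25, 0% for YE minus NDL25 and 1.04% for NYPD minus NDL25. It was 0.0141% for YC minus NYPD, 0.0282% for YD minus NYPD (0.0106% higher and 0.0176% lower) and 1.82% for YE minus NYPD, and 0.00353%, 0.00353% and 0% for YC minus YD, YC minus YE and YD minus YE. At an unadjusted p under 0.05 there were 3 of the 10 genes for YC minus NDL25 (Xbp1 and Atf4 above 0, Derl3 below), against 11.4% of all genes. There were 2 for YD minus NDL25 (Derl3 and Asns below 0), against 10.3%, 2 for NYPD minus NDL25 (Xbp1 above, Derl3 below), against 15.6%, and 1 for YE minus NDL25 (Edem1 below), against 7.56%. Set against NYPD, YE had 3 (Derl3 above, Xbp1 and Edem1 below), against 19.3%, YC had 1 and YD had 1 (Edem1 below in both), against 10.3% and 10.7%. YC minus YD had 1 (Derl3 above), against 2.36%, YC minus YE 1 (Xbp1 above), against 8.08%, and YD minus YE 2 (Derl3 and Asns below), against 8.73%.

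The wider pathways were read from 6 lists, 159 genes tested apart from the 10: ER stress sensors and factors, chaperones, ERAD, translocation and transport genes that XBP1 drives, ATF4 targets of amino acid supply and tRNA charging, and ATF4 and CHOP targets among stress regulators. In YB minus NDL25 5 of the 159 were higher and none lower, 3.14% against 3.96% of all genes, of which 3.15% were higher and 0.811% lower. The 5 were Sil1, a nucleotide exchange factor of BiP (log2 0.73, adjusted p = 0.0145), Kdelr3, a receptor that returns ER proteins (0.78, adjusted p = 0.00609), Sec61a1, the translocation channel (0.39, adjusted p = 0.0231), Slc1a5, a glutamine transporter (0.77, adjusted p = 0.0189), and Cbs, an enzyme of cysteine synthesis (0.37, adjusted p = 0.0191). Sil1 read 0.96 and 0.70 in YB and 0.10 and 0.10 in NDL25, and Slc1a5 -1.12 and -1.49 in YB and -2.10 and -2.04 in NDL25. Slc1a5 was thus below the reference in both strains.

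Beside Asns, 31 amino acid and tRNA genes were tested, and 2 passed in YB minus NDL25. The list's median difference was 0.05, against -0.01 over all genes, and its mean level lay between -1.18 and -0.81 in the 12 pools. The 28 ERAD genes beside Derl3 had a median difference of -0.03 and none passed, with 1 below 0 at an unadjusted p under 0.05. The 28 chaperones had a median of -0.18, the 28 translocation and transport genes -0.04, the 24 sensors and factors -0.02 and the 21 stress regulators 0.03.

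Against NYPD, YB had 8 of the 159 genes higher and 4 lower, 7.55% against 5.16% of all genes, of which 4.1% were higher and 1.05% lower. Dnajc3, a BiP co-chaperone (0.78), and Pycr1, which makes proline (0.49), were among those higher. The other Dnajc3 probes read 0.04, 0.88 and 0.80 for YB minus NYPD. Slc7a5, a leucine transporter (-0.87), and Cebpb, a stress factor gene (-0.38), were among those lower. In NYPD minus NDL25 3 of the 159 fell, 1.89% against 1.04% of all genes, 0.441% higher and 0.6% lower. Those were Dnajc3 (fell by 0.88 on the log2 scale), Creld2, an ER protein induced by stress (fell by 0.54), and Pycr1 (fell by 0.51). In YE minus NYPD 4 fell and 1 rose, 3.14% against 1.82% of all genes, 0.843% higher and 0.981% lower. Pdia4, a disulfide isomerase, fell by 1.48, Ndrg1 by 2.29 and Stc2, a secreted glycoprotein that ATF4 induces, by 1.82, while Pycr1 rose by 0.73. Markers of cell types moved in the same comparisons. In YE minus NYPD 3 of 12 luminal and milk genes were lower, with Krt19 at -3.42, Glycam1 at -2.63 and Wap at -2.28, and so were 2 of 10 macrophage markers, with Cd14 at -2.13, the basal marker Trp63 (-1.57) and the endothelial marker Pecam1 (-0.83). In NYPD minus NDL25 3 of 12 luminal and milk genes were higher, with Wap at 2.33 and Glycam1 at 2.32, and so were Trp63 (1.60) and Cd14 (2.23). The part of these cells in the pathway genes was not tested.

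In YB minus YC 5 of the 159 rose (3.14%, against 3.51% of all genes higher and 0.61% lower). In YB minus YD 7 rose and 2 fell (5.66%, against 3.33% higher and 0.494% lower), and in YB minus YE 6 rose (3.77%, against 2.89% higher and 0.734% lower). Kdelr3 and Cbs were higher in YB than in every one of the other 5 strains, and so was Sec61a1 by its brightest probe. The other 2 probes of Sec61a1 read 0.20 and 0.38 for YB minus NDL25, but 0.01 and 0.06 for YB minus YC and -0.11 and 0.09 for YB minus YE. Kdelr3 read -1.26 and -1.11 in YB and between -2.00 and -1.68 in the other 10 pools. In the pairs without YB that are not named here none of the 159 passed.

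**Figure D4:**
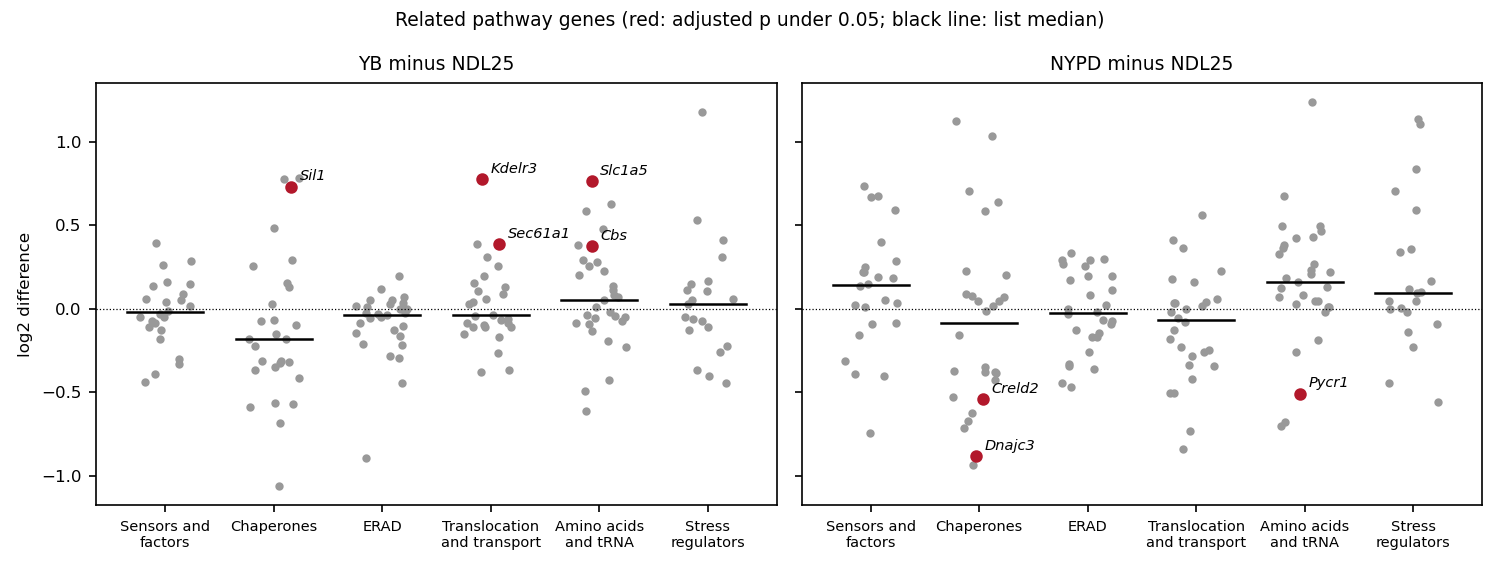
Log2 differences from NDL25 of the genes of 6 related lists, YB on the left and NYPD on the right; each point is a gene, red points passed at an adjusted p under 0.05 and black lines are list medians. The red points are above 0 for YB (Sil1, Sec61a1, Kdelr3, Cbs and Slc1a5) and below 0 for NYPD (Dnajc3, Creld2 and Pycr1).

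Over the 12 pools and 17704 other genes with ordinary symbols, the genes whose ratios were most like those of Asns by Pearson r were Olfr732 (0.961), Wnt3a, Olfr1141, Plag1 and Olfr1061 (0.952), and the least like were Tmem201 (-0.931), Septin12 and Alpk3. For Derl3 the genes most like it included Prr29 (0.904), Ces5a, Gpc5 and Osm, and the least like Sspn (-0.930), Fbln2 and Adamts1. For Xbp1 they were Fgd1 (0.941), Msi2, Napb, Cep85 and Ube2d1, and Cadm3 (-0.953), Vav2 and Malat1. None of these genes was one of the 10 or of the 6 lists. The 12 pools share strains and sessions, so these values describe the pools only.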

How the data were processed

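The deposited scanner files, written by Agilent Feature Extraction A.7.5.1 per the file headers, give for each spot the mean intensity and the local background intensity of each dye. For every pool there is also a table by the authors with a log2 ratio per probe, in which some probes have no value. RMA, limma and R 2.3.0 are named in the submitters' processing notes. The base of that logarithm and the genome build are not given in the sources used here, so reading it as log2 is an assumption. Processed intensity, background-subtracted and dye-normalised by the scanner software per the file headers, served as an alternative.

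The labels name both dyes for each channel, so the tumour channel was read from 18 luminal and milk probes. Csn2 and Lalba, which are among those genes, were higher in it on all 24 arrays. Afp, which did not set the channel, was higher in the other on all 24. The deposited ratios correlated with the turned ratios at r of 0.955 or above. Intensities were corrected by normexp (offset 50) and loess with the R packages limma (3.58.1) and data.table (1.17.8) in R (4.3.3). Flagged spots were left out and each pool is the mean of its 2 arrays. A probe had to be well above background on at least 4 arrays in the tumour channel. The brightest probe stood for a gene. Symbols come from RefSeq by accession for 20716 probes, and promoter windows from RefSeq on GRCm38.p6.

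One limma model with 6 strain means was fitted to the 12 pools, with an F test and 15 contrasts, each adjusted by Benjamini-Hochberg over 28351 genes at a threshold of 0.05. The residual degrees of freedom were 6, to which the prior added 1.76. SE stands for limma's moderated standard error. On simulated data with the layout of YB minus NDL25 the fit called 65 of 100 genes given a log2 change of 1, 95 of 100 given a change of 2 and, falsely, 14 others of 28351. Pool numbers were checked as pairs: same-numbered pools deviated together at r over 0.1 in 7 of 15 strain pairs, from -0.173 to 0.710, so they were not used as pairs.

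All 10 genes are named. Of the other lists counts are given, with up to 4 genes by F test p; others past the threshold were picked after their values were seen, and likeness is by Pearson r over pools for genes with a call. One gene that this rule names is not reported here. The members and lists were chosen with earlier results of these data known. Leaving out pools, other scalings, probes and arrays, session and pool number as blocks and fits of 2 strains were tried as alternatives. Without pool 1 of YB and NDL25 together, and within 1 session, were added after seeing the data. The number of pools limits the precision.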

Additional observations from a re-analysis of the deposited data

How the results depend on the processing

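No called difference of Asns, Derl3 or Xbp1 reversed under any alternative. In YB minus NDL25 Derl3 and Asns each passed in 21 of 27 alternatives, with adjusted p from 0.00755 to 0.219 for Derl3 and from 0.0168 to 0.196 for Asns, and Xbp1 passed in 14 of 25 against NYPD and in 17 of 26 against YC. Asns passed in 24 of 25 against NYPD, 22 of 26 against YC, 23 of 26 against YD and 14 of 26 against YE.

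By count, the F test called 2 of the 10 genes. It called 1 with median centring, with the scanner software's processed signals and with the deposited ratios, and 0 with session as a block. YB minus NYPD called 2, and 1 with the first array of each pair. The 6 pairs among YB, YC, YD and YE held 4 called differences, those of Asns and Xbp1, and 0 with session as a block. When only the 2 strains compared were fitted, YB minus NDL25, YB minus NYPD and these 6 pairs called 0, with 2 residual degrees of freedom in each fit. Within session 2 alone, added after seeing the data, YB minus NDL25 called 0. Without pool 1 of YB and NDL25 together, also added later, the F test called 1, YB minus NDL25 0 and YE minus NYPD 1 (Xbp1, adjusted p = 0.0352). With the pool number as a replicate block NYPD minus NDL25 called 1 (Derl3, -1.41, adjusted p = 0.0459) against 0 without it, and YB minus YE gained Derl3 (adjusted p = 0.0472); it changed no other call of the 10 genes.

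Leaving out 1 pool at a time, the F test called 0 to 2, YB minus NDL25 0 to 2, YB minus NYPD 1 to 2, NYPD minus NDL25 0 to 1, YE minus NYPD 0 to 1 and the 6 other pairs 1 to 5; the other counts did not move. In such a fit the lone pool is assumed to vary like the other strains. The causes were not tested, except that fits with fewer pools have fewer degrees of freedom. Over all genes, the F test called 911 and 36 to 1306 in the alternatives, YB minus NDL25 1122 and 3 to 1224, YB minus NYPD 1462 and 4 to 1822, NYPD minus NDL25 295 and 0 to 589, and YE minus NYPD 517 and 0 to 981. YC and YD minus NDL25 called 1 and 2 genes and up to 431 and 24, and YC and YD minus NYPD 4 and 8 and up to 300 and 325. Hspa5 and Atf4 lack a deposited ratio in some pools, so the deposited ratios give no value for them. No session block could be fitted for differences from NYPD.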
